A study of Homo sapiens with 4 samples.

Results

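N6-methyladenosine (m6A) is the methyl mark that a nuclear complex adds to adenosines of mRNAs and of primary microRNA transcripts. The 10 genes described here are its best known writers, erasers and readers: METTL3, METTL14, WTAP, ALKBH5, FTO, YTHDF1, YTHDF2, YTHDF3, YTHDC1 and HNRNPA2B1. They were taken by gene symbol from a table of 58037 genes, in which each of the 10 had 1 row and all 10 were among the 14231 genes that the authors tested.

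METTL3 carries the catalytic site of the writer, METTL14 holds the RNA and WTAP anchors the pair in nuclear speckles. ALKBH5 and FTO remove the mark, and proteins with a YTH domain bind it and steer the RNA to splicing, export, translation or decay. METTL3 marks primary microRNAs for recognition by DGCR8, the partner of the ribonuclease DROSHA, and HNRNPA2B1 has been described as a nuclear reader that aids this step, so the level of these genes is of interest when DROSHA is reduced.

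The cells were K562, a human erythroleukaemia line, at passages 25 to 30. The control group (2 libraries) had received a non-specific CRISPR lentivirus and the knockdown group (2 libraries) one that targets DROSHA. Both had been selected with puromycin at 2.5 ng/µl, so the controls also carry a CRISPR virus, and the labels do not say whether either population was a pool or a clone or whether the libraries came from separate cultures. P-values here thus reflect only how far these libraries differ, a spread that can be technical. Total RNA was sequenced.

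The deposited values give a mean and a fold change per gene, and the whole reads of each library were solved from them. This gave 1 solution for 13898 of the 14231 tested genes, all 10 m6A genes included. Over those 13898 genes the control libraries held 31775190 and 24036994 reads and the knockdown libraries 27059580 and 21135903. Within each group the libraries are called the deeper and the shallower one, since they could not be tied to replicate numbers. Normalised reads are reads divided by the authors' size factor of the library. Which side is the knockdown rests on DROSHA being negative in the authors' deposited table, so the sign for DROSHA is no check of the labels. DROSHA had 6107 and 6077 normalised reads in the control libraries and 2734 and 2770 in the knockdown libraries, which leaves 45.2% of the control level. Of the K562 markers, 10 of 10 had a mean above 100 normalised reads, from 762 for EPOR to 156201 for HBE1. Of 12 markers of lymphoid, myeloid, epithelial and fibroblast cells, 8 were at or below 100, with MS4A1 at 0 among them, and the highest were EPCAM at 2755 and KRT8 at 4291 in the authors' deposited table.

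None of the 10 genes passed an adjusted p under 0.05 in the authors' DESeq2 comparison, where 50 of 14231 genes (0.351%) did. At the p implied before adjustment, 1 of the 10 was under 0.05, against 967 of the 14231 tested genes (6.8%). The log2 fold changes of the 10 genes ran from -0.12 for FTO to 0.55 for HNRNPA2B1 in the authors' deposited table, with 6 above and 4 below 0. Their median was 0.15, beside a median of -0.03 over all tested genes, and their median size regardless of sign was 0.15, the same as over all tested genes to this precision. Without the shallower knockdown library the median log2 ratio of the 10 was -0.0028. In 2 of the 10 both knockdown libraries lay above both controls, which 18.8% of the 13898 solved genes showed. In 1 of the 10 both lay below, which 22.7% of the solved genes showed. In bulk RNA a level in every cell and a share of cells expressing the gene cannot be told apart.

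**Figure D1:**
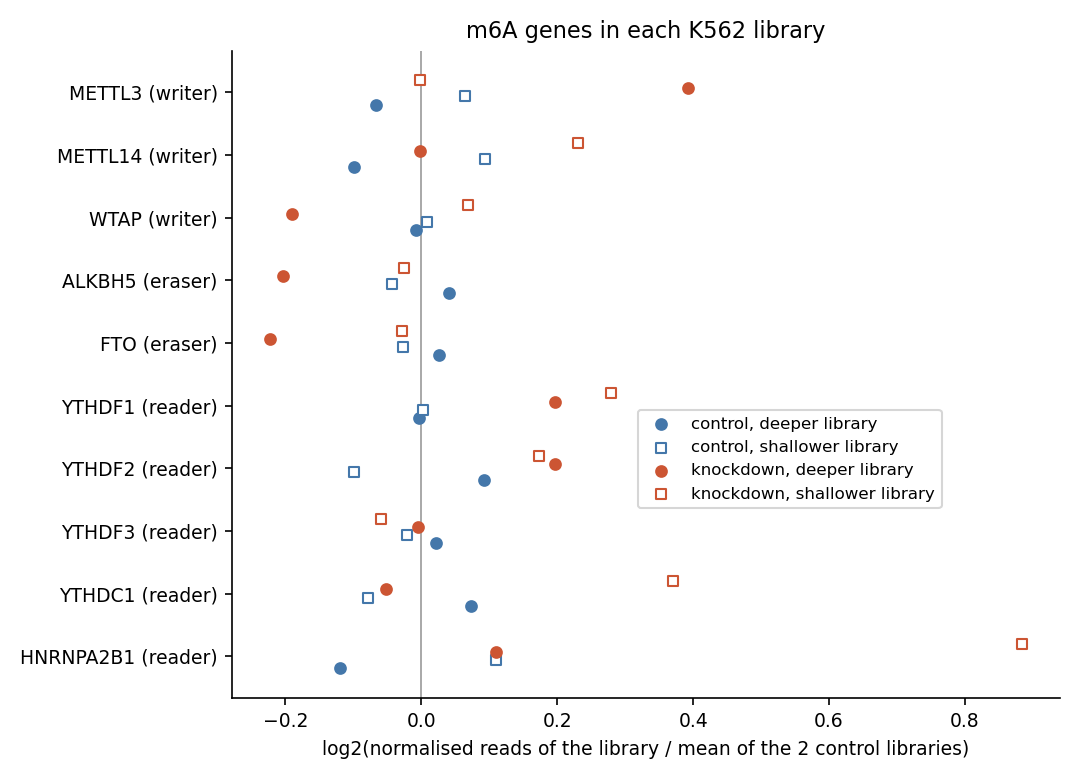
Normalised reads of each library for the 10 m6A genes, as log2 of the ratio to the mean of both control libraries. Circles are the deeper and open squares the shallower library of the control (blue) and knockdown (orange) groups; the HNRNPA2B1 value of 30217 in the shallower knockdown library stands far to the right of its other 3.

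Among the writers, METTL3, the catalytic subunit, at chromosome 14, 21498133 to 21511375 (minus strand), in hg38 and GENCODE release 29, had 1870 and 2048 normalised reads in the deeper and shallower control libraries and 2572 and 1956 in the knockdown libraries. The deeper knockdown library was the high one, and the groups overlapped. The log2 fold change in the authors' deposited table was 0.21 (standard error 0.17, 95% interval -0.12 to 0.54, DESeq2 adjusted p = 0.888). Without that library the log2 ratio of the group means was -0.0023.

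METTL14, the RNA-binding partner of METTL3, at chromosome 4, 118685368 to 118715433 (plus strand), had 1236 and 1413 normalised reads in the control libraries and 1323 and 1554 in the knockdown libraries. Here the shallower knockdown library was the high one, and the groups overlapped again. METTL14 had a log2 fold change of 0.12 (standard error 0.17, 95% interval -0.21 to 0.45) in the authors' deposited table, and a ratio of -0.0014 without that library. As the 2 proteins act as a pair, the ratio of their normalised reads per kb of exon was compared between libraries. It was 1.76 and 1.69 in the control libraries and 2.26 and 1.47 in the knockdown libraries. The knockdown values lay on either side of both control values. The size of this ratio depends on the length used. With the longest principal protein-coding transcript, control means per kb were 972 for METTL3 and 199 for METTL14.

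WTAP, the adaptor of the complex, at chromosome 6, 159725585 to 159756319 (plus strand), had 4642 and 4695 normalised reads in the control libraries and 4091 and 4894 in the knockdown libraries. The control values fell between the knockdown values. WTAP had a log2 fold change of -0.06 (standard error 0.15, 95% interval -0.34 to 0.23) in the authors' deposited table, and the ratio was 0.07 without the deeper knockdown library.

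The erasers had small negative fold changes, which did not pass the test. Without the deeper knockdown library the log2 ratio was -0.025 for ALKBH5 and -0.028 for FTO. ALKBH5, a nuclear demethylase, at chromosome 17, 18183078 to 18209954 (plus strand), had 3935 and 3713 normalised reads in the control libraries and 3321 and 3758 in the knockdown libraries. Only the deeper knockdown library lay below both controls. The log2 fold change was -0.11 (standard error 0.14, 95% interval -0.39 to 0.17, DESeq2 adjusted p = 0.948) in the authors' deposited table.

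FTO, the first m6A demethylase to be described and an oxygenase of the same family, at chromosome 16, 53701692 to 54158512 (plus strand), had 881 and 848.6 normalised reads in the control libraries and 741 and 848.3 in the knockdown libraries. Both knockdown values were below both controls, the shallower one by under 1 normalised read. The log2 fold change was -0.12 (standard error 0.17, 95% interval -0.46 to 0.22, DESeq2 adjusted p = 0.956) in the authors' deposited table. FTO and ALKBH5 kept nearly the same ratio in all 4 libraries. In normalised reads per kb of exon it was 0.0334 and 0.0341 in the control libraries and 0.0333 and 0.0337 in the knockdown libraries. The size of this ratio, too, depends on the length used.

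Of the cytoplasmic readers, YTHDF1 and YTHDF2 had higher values in both knockdown libraries and YTHDF3 did not. YTHDF1, described as a reader that promotes translation, at chromosome 20, 63195429 to 63216234 (minus strand), had 2530 and 2542 normalised reads in the control libraries and 2906 and 3076 in the knockdown libraries. The groups did not overlap, and the controls differed by far less than the gap. For YTHDF1 the log2 fold change was 0.24 (standard error 0.14, 95% interval -0.04 to 0.51, DESeq2 adjusted p = 0.783) in the authors' deposited table. Leaving out any 1 library gave log2 ratios from 0.20 to 0.28.

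YTHDF2, which recruits the deadenylase complex to marked mRNAs, at chromosome 1, 28736621 to 28769775 (plus strand), had 4778 and 4186 normalised reads in the control libraries and 5139 and 5057 in the knockdown libraries. The groups did not overlap, though the controls lay farther apart than the knockdown libraries. The log2 fold change was 0.19 (standard error 0.14, 95% interval -0.09 to 0.46, DESeq2 adjusted p = 0.874) in the authors' deposited table. With 1 library left out the log2 ratio ran from 0.09, without the shallower control, to 0.28.

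YTHDF3, the third paralog, at chromosome 8, 63168553 to 63212786 (plus strand), had 4190 and 4069 normalised reads in the control libraries and 4117 and 3965 in the knockdown libraries. It was the steadiest of the 10 genes, with its highest library 1.06 times its lowest. The log2 fold change was -0.03 (standard error 0.14, 95% interval -0.30 to 0.24) in the authors' deposited table. Whether the 3 paralogs differ in their fold change was not tested.

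YTHDC1, the nuclear YTH reader that acts in splicing and export, at chromosome 4, 68310387 to 68350089 (minus strand), had 2330 and 2098 normalised reads in the control libraries and 2135 and 2862 in the knockdown libraries. The shallower knockdown library stood above the other 3, and the groups overlapped. Its log2 fold change of 0.17 (standard error 0.17, 95% interval -0.17 to 0.51) in the authors' deposited table became a ratio of -0.05 without that library.

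HNRNPA2B1, an abundant nuclear RNA-binding protein of the hnRNP family, had the largest fold change of the 10. Its locus is chromosome 7, 26173057 to 26201529 (minus strand). It had 15069 and 17675 normalised reads in the control libraries and 17673 and 30217 in the knockdown libraries. The shallower knockdown library alone was high, at 1.71 times the next library, and the deeper one matched the shallower control. In reads before scaling, the values were 18539 and 16225 in the control and 19312 and 24578 in the knockdown libraries. The library with the fewest reads over the solved genes thus held the most of this transcript.

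The HNRNPA2B1 log2 fold change was 0.55 (standard error 0.21, 95% interval 0.15 to 0.95) in the authors' deposited table. Its DESeq2 adjusted p was 0.400, with an implied p of 0.0076 before adjustment. It was the only one of the 10 whose interval did not hold 0; the other 9 did. Without the shallower knockdown library the log2 ratio was 0.11. With that library as the sole knockdown library it was 0.88. A limma-voom fit of the latter, where the lone library is assumed to vary like the controls, gave 0.89. With all 4 libraries limma-voom gave 0.50 (adjusted p = 0.450), and it called 23 genes (0.165%), none of them among the 10.

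**Figure D2:**
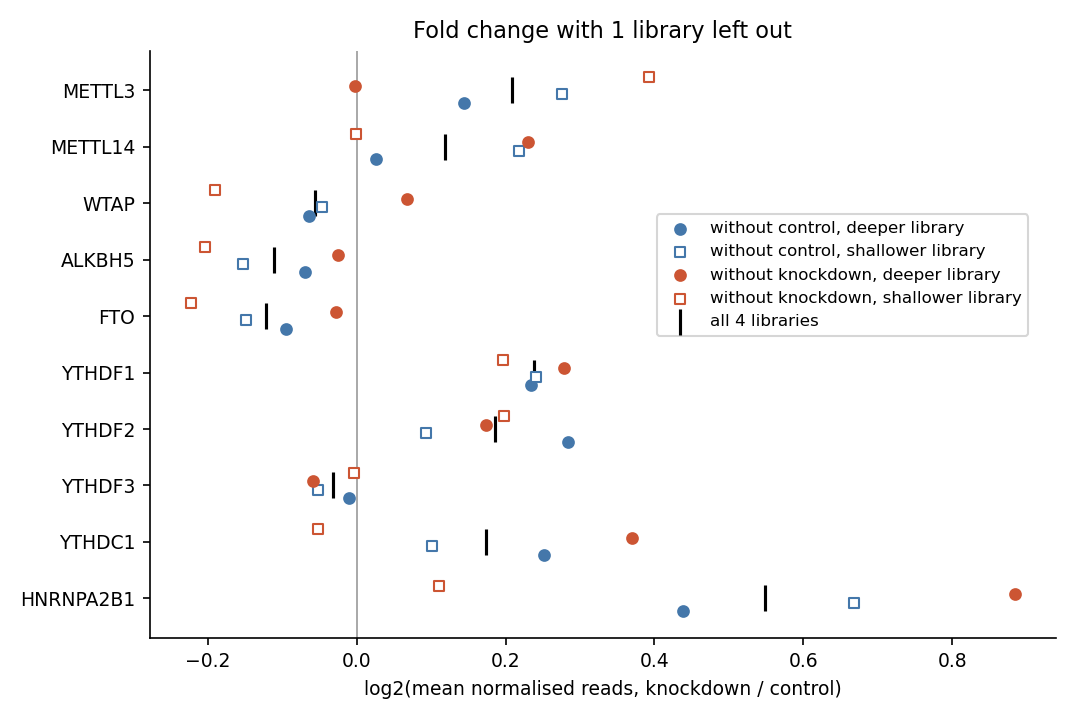
Log2 ratio of mean normalised reads, knockdown over control, for each of the 10 m6A genes with all 4 libraries (black bar) and with each library left out in turn (symbols). HNRNPA2B1 moves between 0.11 and 0.88, and METTL3, METTL14, WTAP and YTHDC1 cross 0.

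The same library was the highest of the 4 for 5 of the 10 genes, against 23.1% of the 13898 solved genes. Among 6488 solved genes with a mean above 1000 normalised reads, 27 stood at least 1.5 times above every other library in the shallower knockdown library, 5 in the deeper knockdown library and 0 in each control library. HNRNPA2B1 was the eighth of those 27 by the size of this excess. The genes above it, named after their values were seen, were PNN, HYPK, NEFH, HNRNPH3, MT-ND3, MT-TV and ANP32B. PNN, a nuclear speckle protein that acts in splicing, stood at 2.09 times the next library. HYPK stood at 2.06 times, NEFH at 2.03 times and HNRNPH3, an hnRNP that binds G-rich RNA, at 1.88 times. The part of that library in the fold change of HNRNPA2B1 beyond these values was not tested.

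The hnRNP relatives of HNRNPA2B1 showed the same library on the high side. Of 23 hnRNP genes listed, 0 passed the adjusted p, beside 0.351% of all tested genes, and 3 had an implied p under 0.05, beside 6.8%. The median log2 fold change was 0.04 in the authors' deposited table. Reads were solved for 19, and in 13 of these the shallower knockdown library was the highest of the 4, beside 23.1% of all solved genes. The median log2 ratio of the 19 was -0.05 without that library and 0.22 without the deeper one. HNRNPH3 had 2055 and 1982 normalised reads in the control libraries and 1916 and 3871 in the knockdown libraries, a pattern like that of HNRNPA2B1, and a log2 ratio of -0.07 without the shallower knockdown library.

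PCBP1, a poly(C)-binding member of the family, was higher in both knockdown libraries, with the shallower one again the highest. It had 3597 and 3340 normalised reads in the control libraries and 4416 and 4870 in the knockdown libraries, with no overlap. On the log2 scale PCBP1 differed by 0.42 (standard error 0.14, DESeq2 adjusted p = 0.248) in the authors' deposited table. HNRNPC, which binds sites that the mark opens, had -0.37 (standard error at most 0.16, DESeq2 adjusted p = 0.562) in the authors' deposited table; its libraries could not be solved. A close relative, HNRNPA1, named after its value was seen, had 0.74 with a standard error of at most 0.56 in the authors' deposited table. It too could not be solved by library, and near-identical processed copies of such genes can share reads.

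**Figure D3:**
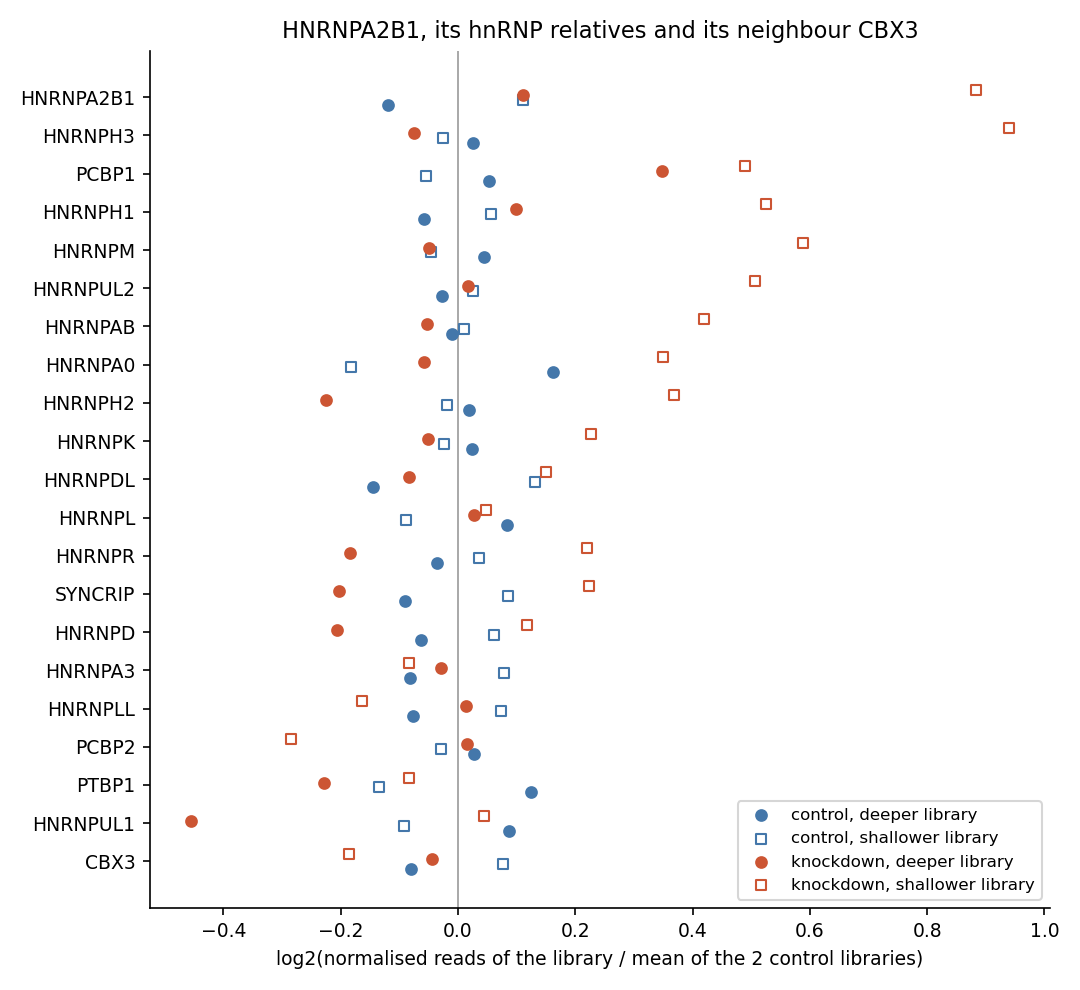
Normalised reads of HNRNPA2B1, the 19 solved hnRNP relatives and the neighbour CBX3, as log2 of the ratio to the mean of both control libraries. The open orange squares of the shallower knockdown library lie farthest right for 13 of the 19 relatives, and for CBX3 they lie to the left.

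Of the tested genes that overlap one of the 10, 0 of 5 passed the adjusted p, beside 0.351% of all tested genes. Release 29 places 12 gene entries across 5 of the 10 members, 0 of them microRNA genes, and 1 lies on the same strand. The counting of strands is not given in the sources used here, so reads of overlapping exons on opposite strands may be shared. CBX3, a heterochromatin protein gene that runs the other way from HNRNPA2B1 and shares 368 bases with it, had 11656 and 12990 normalised reads in the control libraries and 11951 and 10836 in the knockdown libraries. It was lowest in the library where HNRNPA2B1 was highest.

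NFE2L3, the other gene across HNRNPA2B1, had a log2 fold change of -0.23 (DESeq2 adjusted p = 0.885) in the authors' deposited table. TOX4, across METTL3, had 0.01 (DESeq2 adjusted p = 0.999) there, and SOD2, across WTAP, had -0.07 (DESeq2 adjusted p = 0.971) in the authors' deposited table. RPGRIP1L, which meets the 5′ end of FTO head to head, had, in the authors' deposited table, -0.01 (DESeq2 adjusted p = 0.999). The signs of TOX4, SOD2 and RPGRIP1L turned when 1 library or another was left out. YTHDF3-AS1, which carries the name of YTHDF3 as its antisense partner, had, in the authors' deposited table, a mean of 27.2 normalised reads and a log2 fold change of -0.35 (DESeq2 adjusted p = 0.968). The 4 pseudogenes named after YTHDF1, YTHDF2, FTO and WTAP had means of 4.27 or less and no adjusted p there.

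The 10 genes covered a wide range of levels per length. On the scale of normalised reads per kb of all annotated exons, control means were 1767 for HNRNPA2B1, 1199 for ALKBH5, 1162 for YTHDF2, 768 for YTHDF1, 727 for WTAP and 670 for YTHDF3. They were 332 for METTL3, 315 for YTHDC1, 193 for METTL14 and 40.5 for FTO. Neighbours in this order whose 4 libraries overlapped were ALKBH5 and YTHDF2, WTAP and YTHDF3, and METTL3 and YTHDC1. HNRNPA2B1 exceeded 94.4% of the solved genes on this scale, and FTO exceeded 19.0%.

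The order depended on the length used. With the longest principal protein-coding transcript in place of all exons, HNRNPA2B1 remained first, METTL14 ninth and FTO last. YTHDF3 moved from sixth to second on that scale, at 1742 normalised reads per kb, and METTL3 rose to 972, since much of its exon length lies in transcripts outside the principal one.

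**Figure D4:**
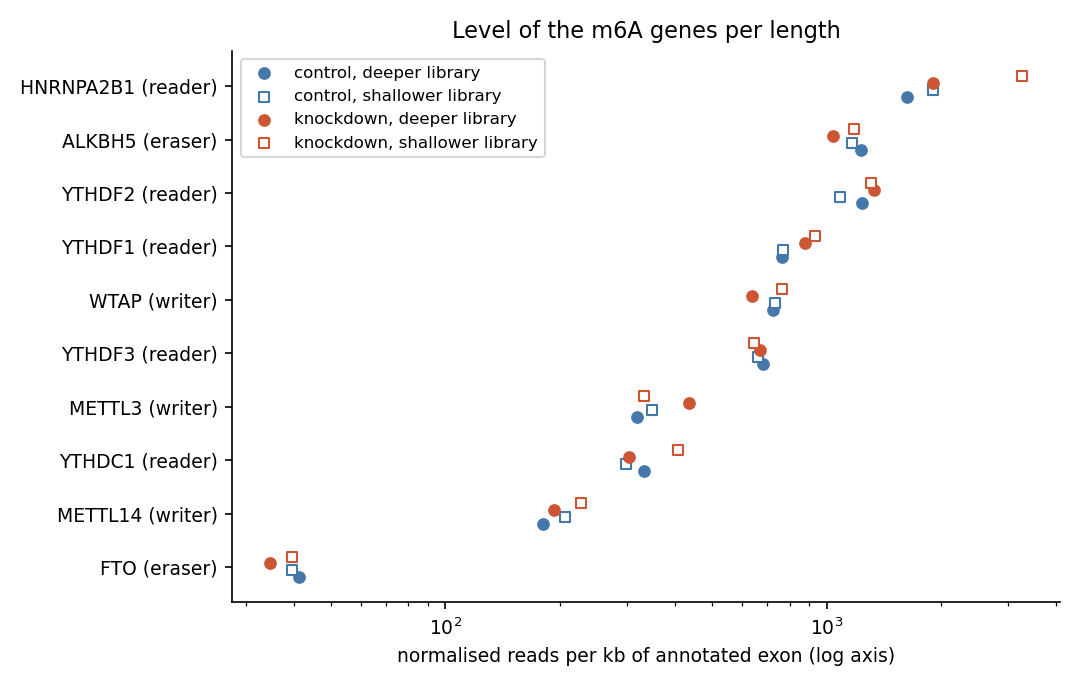
Normalised reads per kb of annotated exon (log axis) of the 10 m6A genes in each library, ordered by control mean. HNRNPA2B1 is at the top near 1767 and FTO at the bottom near 40.5, and for most genes the 4 libraries lie close together on this scale.

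Beyond the 10, the wider m6A system was looked at through 39 listed genes. Of these, 1 was higher, 0 were lower and 38 did not pass the adjusted p, beside 0.351% called among all tested genes. An implied p under 0.05 was found for 8 of the 39, beside 6.8% of all tested genes. The list, MAT2A included, was chosen with earlier results of these data known, so neither count is a test of the m6A system as a set. The median log2 fold change was 0.04 in the authors' deposited table, against -0.03 over all tested genes. The gene that rose was MAT2A, the enzyme that makes S-adenosylmethionine, the methyl donor of the writers. The gene is at chromosome 2, 85539165 to 85545280 (plus strand). It had 8205 and 7497 normalised reads in the control libraries and 15580 and 13471 in the knockdown libraries. Both knockdown libraries were far above both controls, and the knockdown mean was 185% of the control mean.

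The MAT2A log2 fold change was 0.89 (standard error 0.14, 95% interval 0.61 to 1.17, DESeq2 adjusted p = 5.3e-07) in the authors' deposited table. Leaving out any 1 library gave log2 ratios from 0.78 to 0.99. In limma-voom on all 4 libraries the adjusted p was 0.0075. Fits with 1 library left out have 1 library in a group, so no p-value is given for them. The call thus rests on fits to all 4 libraries.

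MAT2A mRNA is the best known target of METTL16, a second m6A writer that recognises hairpins in its 3′ UTR. The sites are shown as background on this known target, and whether they bear on the rise of MAT2A was not tested. The sequences TACAGAGAA and TACAGAAAA (with U for each T in the RNA) were searched on the transcript strand of the GENCODE release 29 transcript MAT2A-201. They occurred 6 times in its 3′ UTR of 1508 bases and 0 times in the rest of the transcript. Capitals mark the motif, on the plus strand of hg38.
Site 1 at chr2:85543802-85543830: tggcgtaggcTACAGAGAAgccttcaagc
Site 2 at chr2:85544589-85544617: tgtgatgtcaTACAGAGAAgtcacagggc
Site 3 at chr2:85544774-85544802: ctggtgtagcTACAGAGAAaccagcttcc
Site 4 at chr2:85544889-85544917: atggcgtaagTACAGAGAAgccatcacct
Site 5 at chr2:85545004-85545032: caaggtgtccTACAGAAAAaccttgggtt
Site 6 at chr2:85545112-85545140: gctggtgtggTACAGAGAAgccagcttgt
Of 42875 protein-coding transcripts of at least that length, 3.36% held either motif in their last 1508 bases. MAT2A-201 was the only one with 6, and transcripts of other genes had at most 2. The motifs are those of its own METTL16 hairpins, so this place was fixed in advance and is no independent result. The match describes the sequence; methylation was not measured.

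METTL16 itself, named after its value was seen, had 1974 and 1947 normalised reads in the control libraries and 2076 and 2187 in the knockdown libraries. The groups did not overlap, but in the authors' deposited table the log2 fold change of 0.12 (standard error 0.15, DESeq2 adjusted p = 0.943) was smaller than its error. The other SAM supply genes, MAT2B, the regulatory subunit of the same enzyme, and AHCY, which clears the by-product of methylation, had 0.10 and -0.05 in the authors' deposited table, and AHCY had a ratio of 0.07 without the deeper knockdown library.

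The remaining subunits of the METTL3 complex did not pass the test. KIAA1429, now named VIRMA, the scaffold that guides the complex toward 3′ UTRs, had 4508 and 4685 normalised reads in the control libraries and 5571 and 5755 in the knockdown libraries. The groups did not overlap. The log2 fold change of KIAA1429 was 0.30 (standard error 0.13, DESeq2 adjusted p = 0.585) in the authors' deposited table. CBLL1, the E3 ligase subunit also called HAKAI, had 4709 and 4677 normalised reads in the control libraries and 3316 and 3900 in the knockdown libraries, with a log2 fold change of -0.38 (standard error 0.15, DESeq2 adjusted p = 0.433) in the authors' deposited table. Fold changes of the 5 subunits were thus on both sides of 0.

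Of the other N6-adenine methyltransferases and their partners, 0 of 7 passed, beside 0.351% of all tested genes. N6AMT1 is in this list although it methylates a protein, a translation release factor. It had 805 and 845 normalised reads in the control libraries and 1126 and 1087 in the knockdown libraries. The log2 fold change of N6AMT1 was 0.42 (standard error 0.16, DESeq2 adjusted p = 0.441) in the authors' deposited table. TRMT112, a small protein that stabilises several methyltransferases including METTL5 and N6AMT1, had in the authors' deposited table -0.29 (standard error 0.14, DESeq2 adjusted p = 0.667). The enzyme and its partner thus had values of opposite sign, neither of which passed.

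Of 13 other readers 0 passed, beside 0.351% of all tested genes, with a median log2 fold change of -0.06 in the authors' deposited table. FXR1, a relative of the fragile X protein, had 4882 and 5081 normalised reads in the control libraries and 5566 and 7094 in the knockdown libraries. FXR1 had a log2 fold change of 0.35 (standard error 0.16, DESeq2 adjusted p = 0.585) in the authors' deposited table.

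Nuclear partners of the readers also gave 0 of 6, beside 0.351% called among all tested genes. SRSF10 and NXF1, a splicing factor and the mRNA export receptor, both linked to YTHDC1, had 0.22 and 0.25 (DESeq2 adjusted p = 0.807 and 0.848) in the authors' deposited table. Decay partners of the YTHDF proteins gave 0 of 5, beside the same 0.351%. RIDA, which links YTHDF2 to an RNA-cleaving complex, was at -0.24 and the helicase UPF1 at -0.10 (DESeq2 adjusted p = 0.883 and 0.965) in the authors' deposited table. RIDA had 1296 and 1914 normalised reads in the control libraries and 1331 and 1381 in the knockdown libraries, and UPF1 had 4700 and 3611 against 3694 and 4053. The groups overlapped for both, and the sign turned for RIDA without the shallower control (log2 ratio 0.06) and for UPF1 without the deeper one (0.10). SAFB, named after its value was seen, had 2881 and 2415 normalised reads in the control libraries and 2450 and 4497 in the knockdown libraries. It too was high only in the shallower knockdown library, without which its log2 ratio was -0.11.

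The relatives of the erasers in the AlkB family gave 0 of 7 called, beside 0.351% of all tested genes. Their median log2 fold change was -0.24 in the authors' deposited table. In 4 of the 7 both knockdown libraries lay below both controls, against 22.7% of solved genes. ALKBH3, a repair enzyme for alkylated nucleic acids, had 1240 and 1330 normalised reads in the control libraries and 1043 and 963 in the knockdown libraries. For ALKBH3 the log2 fold change was -0.36 (standard error 0.16, DESeq2 adjusted p = 0.594) in the authors' deposited table. ALKBH4, an oxygenase with protein substrates, had 767 and 779 normalised reads in the control libraries and 629 and 627 in the knockdown libraries. On the log2 scale ALKBH4 differed by -0.30 (standard error 0.17, DESeq2 adjusted p = 0.780) in the authors' deposited table.

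**Figure D5:**
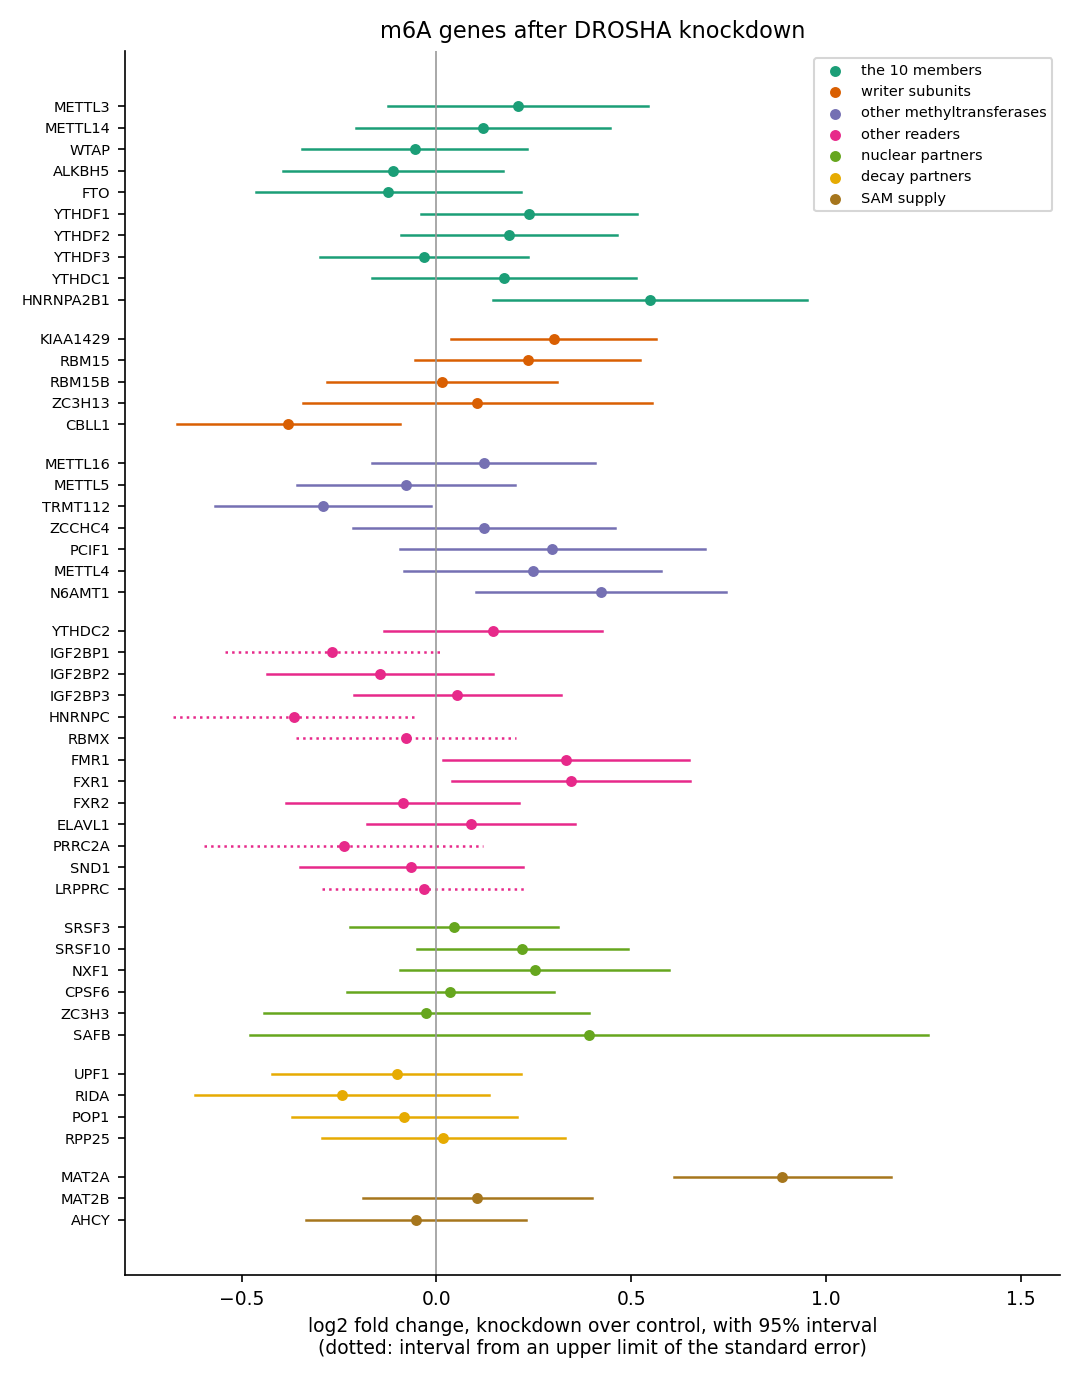
Log2 fold change, knockdown over control, in the authors' deposited table for the 10 m6A genes and 38 of the 39 other m6A genes, with 95% intervals (dotted where the standard error is an upper limit). MAT2A at 0.89 is the one that passed the adjusted p; CNOT1 is not drawn because the upper limit of its standard error is too wide to plot.

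DGCR8, which binds methylated primary microRNAs with DROSHA, had 4508 and 3783 normalised reads in the control libraries and 12944 and 14398 in the knockdown libraries. In the authors' deposited table its log2 fold change of 1.72 (standard error 0.15, DESeq2 adjusted p = 1.2e-27) was larger than that of any of the 10 m6A genes, whose intervals all lay between -0.46 and 0.95. A log2 fold change of 1 in either direction was outside the interval of each of the 10. The intervals rest on 2 libraries per group, whose spread can be technical, so they cannot exclude such a change between separate cultures.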

How the data were processed

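The comparison was control against knockdown, as labelled. Of each gene the authors deposited the mean normalised read count over all libraries (a signal), plus the log2 fold change and its adjusted p-value, per the file headers. Tools that the submitters' processing notes list are STAR 2.6.0a, Bowtie2 2.3.4.1 and, for the authors' test, DESeq2 1.24.0, with build hg38. How the authors counted reads, with which strand setting and gene models, is not given in the sources used here. The kit was TruSeq Stranded Total RNA, per the labels' protocols. The m6A genes and all lists were chosen with earlier results of these data known.

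With 0 columns for single libraries, the authors' DESeq2 test served, adjusted over all 14231 genes. A second log2 column deposited by the authors was not used, since its assay and direction are not stated. Each mean is a sum of whole reads times 4 fixed steps, 1 per library, which genes with few reads reveal. Whole-read solutions were enumerated at the 15 printed digits and kept where a negative binomial fit gave the deposited fold change, within 5e-06 on the log2 scale where an adjusted p belongs to 1 gene. Where several genes share an adjusted p, the implied p and the dispersion are upper limits. Where several solutions fitted (289 genes), none did (27) or the search was too large (17), no library values are given. The method was also run on data simulated under the same negative binomial model, which is no check on departures from that model. The outcome of that run is not given here.

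Standard errors came from the unadjusted p where it is unshared, otherwise from the reads. The 95% intervals are Wald intervals and rest on the authors' dispersions. With 2 libraries against 2, an exact permutation test cannot give less than p = 0.333. limma-voom (limma 3.58.1 in R 4.3.3) on the solved reads, with library sizes proportional to the size factors, was an alternative chosen after the data were seen. Named genes were the 10, DROSHA, DGCR8, MAT2A, in each list those called and the 2 with the smallest adjusted p, and tested genes that overlap one of the 10 or carry its name; others are marked as chosen after their values were seen. HNRNPC is in both the reader and the hnRNP list. Scripts ran under Python 3.11.15 with scipy 1.17.1, numpy 2.4.6 and pandas 2.3.3.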

Additional observations from a re-analysis of the deposited data

How the results depend on the processing

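The count of 0 called among the 10 genes held at an adjusted p under 0.01 or 0.1, with Bonferroni adjustment, with protein-coding genes only, with a size of at least 1 on the log2 scale and in limma-voom on all 4 libraries. Fits with 1 library left out have 1 library in a group, whose spread they cannot measure, so only effect sizes are given for them. The count of other m6A genes was 0 once a size of 1 on the log2 scale was also required, and ran from 0 to 2 with each library left out: MAT2A was lost without either control library, and SAFB was added without the deeper knockdown library. The count of hnRNP and AlkB relatives stayed at 0 in the settings with all 4 libraries. In the fit without the deeper knockdown library the log2 fold change was 0.53 for HNRNPH1, 0.94 for HNRNPH3 and 0.59 for HNRNPM, but -0.93 for ALKBH7. These relatives were named after their values were seen. The cause was not tested.

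The median log2 fold change of the 10 genes was 0.17 after re-centring on all tested genes, and ran from -0.0028, without the shallower knockdown library, to 0.12. The sign turned for METTL3 (-0.0023) and WTAP (0.068) without the deeper knockdown library, and for METTL14 (-0.0014) and YTHDC1 (-0.053) without the shallower one. METTL3 ranged up to 0.39, METTL14 to 0.23, WTAP down to -0.19 and YTHDC1 up to 0.37. The other 6 genes and DROSHA, from -1.16 to -1.14, kept their direction.

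No paired analysis was possible because the solved libraries carry no replicate number. edgeR and an unfiltered test were not run.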
